A study of Mus musculus with 5 samples.

Results

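Glycolysis and the transcriptional response to low oxygen were followed through 43 listed genes in embryonic fibroblasts of the mouse that the SV40 T antigen had made immortal. The rule took the rows of the deposited table whose gene symbol was a listed member, and it found 42 of them among 23337 genes. Pkm, the pyruvate kinase gene, was not among the symbols. A row under its older symbol, Pkm2, is described apart and is in no count. All 42 found members passed the filter for testing, which asked that 2 or more of the 5 libraries hold a normalized read count of at least 10, although Slc2a3 passed it only through the libraries labelled KO, where it is high. Slc2a3 is therefore described without a test, and counts of calls over all members are given for the 41 others. The members were grouped by role as 17 glycolytic enzymes (18 with Pkm), 4 glucose or lactate transporters, 4 PFKFB enzymes, 8 regulators of the hypoxia-inducible factor (HIF) and 9 HIF targets outside glycolysis.

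The libraries fell into 3 labelled SIRT3 wild type (WT) and 2 labelled SIRT3 knockout (KO), all from 129Sv fibroblasts that carry the T antigen and were kept in ordinary culture. SIRT3 is a protein deacetylase of the mitochondrial matrix, and the title of the study concerns the dependence of cells without it on nucleotide synthesis. No label states the knockout allele, the number of lines, or whether replicates were cultured separately, so p-values here reflect how far the 5 libraries scatter, possibly for technical reasons alone. Differences between lines made from different embryos cannot be told apart from differences by genotype.

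Glycolysis splits glucose into pyruvate, and lactate dehydrogenase then reduces pyruvate to lactate, which leaves the cell through monocarboxylate transporters. HIF is a transcription factor made of an alpha subunit (HIF1A or EPAS1) and ARNT. When oxygen is present, the prolyl hydroxylases EGLN1, EGLN2 and EGLN3 mark the alpha subunit, the VHL ubiquitin ligase then directs its degradation, and HIF1AN hydroxylates it so that it recruits coactivators less well. Much of this control acts on protein, which was not measured. Many glycolytic genes and genes for pH, blood vessel growth and mitophagy are known HIF targets. Loss of SIRT3 has been linked in other work to HIF1A stabilization and glycolysis, and the comparison of enzymes with other targets asks whether both sets of transcripts differed here.

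The reads recovered per library ran from 33473103 to 41758681. Sirt3 itself was detected in every library, at normalized read counts of 169.7, 149 and 118 in the WT libraries and 200.4 and 217 in the KO libraries. It was thus higher in the libraries labelled KO, against that label unless the allele still gives a transcript, and every direction is given between libraries as labelled (log2 fold change 0.53, SE 0.152, limma adjusted p = 0.00445). The median log2 fold change of the genes within 5 Mb of Sirt3 was 0.31, and with it subtracted Sirt3 was not called (0.22, limma adjusted p = 0.23). Of 11 fibroblast markers, 10 were tested, 2 rose and 6 fell, beside 32.6% called each way over all genes tested. The summed normalized read count of these markers ran from 612837 to 628587 in WT and from 569768 to 608474 in KO libraries. Pdgfra, a growth factor receptor of fibroblasts, stood at 19752, 20181 and 20105 in the WT libraries and 1185 and 1324 in the KO libraries. The muscle markers summed to 12.0 to 18.6 in WT and 48.9 to 72.7 in KO libraries with Myod1 at 0. Acta1 made up most of the muscle sum, at 14.1, 10.9 and 7.4 in the WT libraries and 67.2 and 45.6 in the KO libraries. The neuronal markers summed to 2072 to 2166 and 2511 to 2607, with Snap25 and Rbfox3 at 0. Tubb3 and Map2 made up most of that sum and went opposite ways. Tubb3 was at 1005, 916 and 940 in the WT libraries and 543 and 547 in the KO libraries. Map2 was at 1151, 1162 and 1125 in the WT libraries and 1943 and 2039.5 in the KO libraries. Sums were 13.0 to 14.8 against 35.2 to 36.7 for epithelium (Krt5 at 0), 26.7 to 37.0 against 77.8 to 80.4 for endothelium, and 81.1 to 89.7 against 84.8 to 107.9 for macrophages and blood (Hba-a1 at 0). Epcam made up most of the epithelial sum in the KO libraries, at 6.19, 4.95 and 7.4 in WT against 18.7 and 25.6. Most of the endothelial difference lay in Kdr, at 0, 2.97 and 1.85 in WT against 40.75 and 35.6 in KO libraries. Cdh5 overlapped between the groups, at 15.0, 9.89 and 23.1 against 15.4 and 18.9. The sums for macrophages and blood overlapped between the groups and the others did not, and the part of these markers in the results was not tested. In RNA from many cells, fewer cells of a type and less RNA per cell cannot be told apart.

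Of these 41 members, 22 were higher and 9 lower in the KO libraries at a limma adjusted p under 0.05, and 10 were not called. Calls were common among all 13062 genes tested: 32.6% were called higher and 32.6% lower, 65.3% in either direction. Differences of at least 1.5-fold were called for 13 members upward and 3 downward, where 12.3% of all genes tested passed upward and 12.0% downward. The values of WT and KO libraries did not overlap for 33 members, against 75.4% of all genes tested. The median log2 fold change, KO over WT, was 0.24 over the members and -0.0023 over all genes tested. The members called 2-fold or more higher were Car12, Adm, Pfkfb3 and Eno3, and Ndrg1 was the member called 2-fold or more lower. They lie at chr9:66712296-66766845, chr7:110627657-110629820, chr2:11471430-11554071, chr11:70653125-70662513 and chr15:66929318-66969641 in GRCm38.p6 (mm10). Fold changes are differences of log2(normalized read count + 1), which understates those of low genes.

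**Figure D1:**
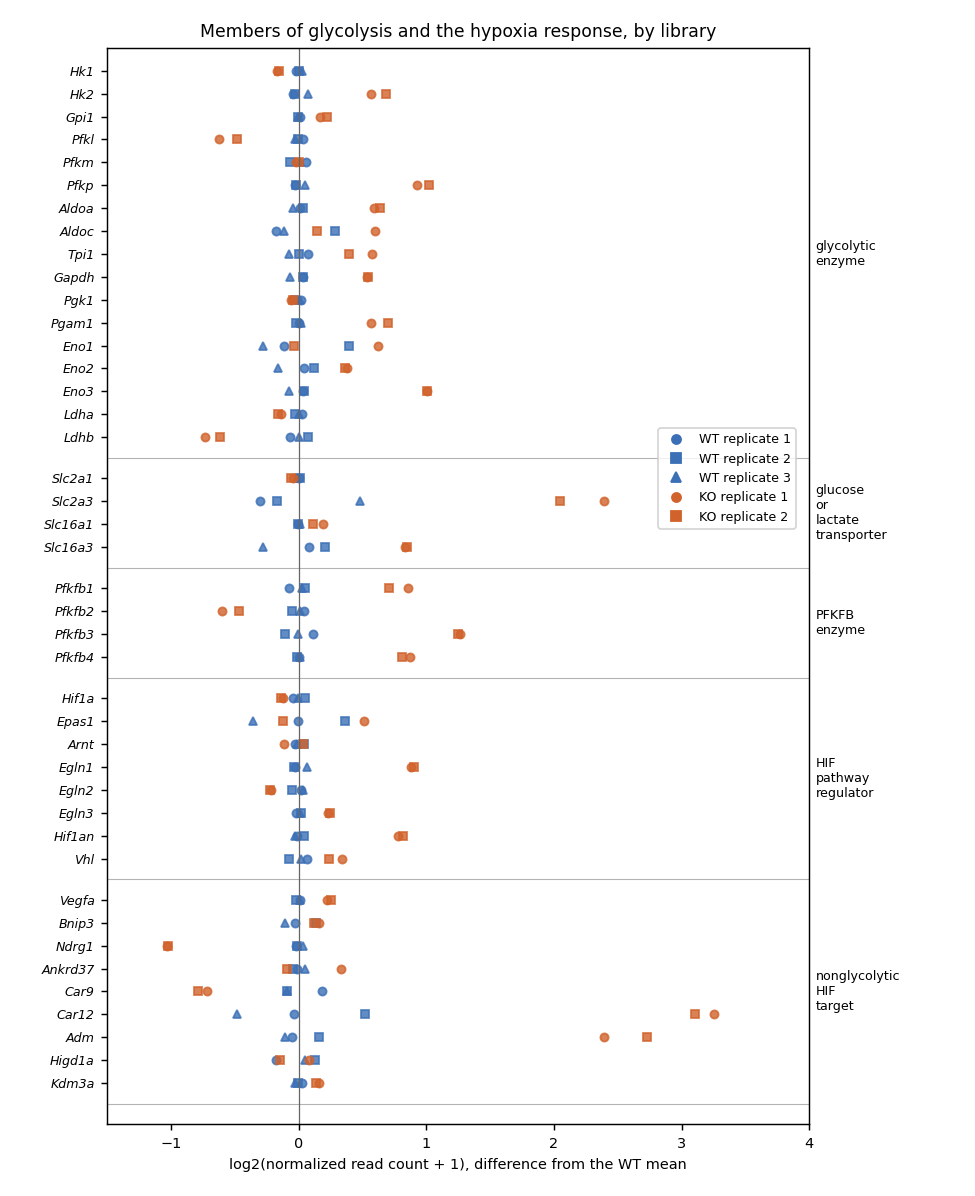
Each row is a member and each point a library, plotted as log2(normalized read count + 1) minus the mean of the 3 WT libraries (horizontal axis), with WT in blue, KO in orange and the replicate by shape. Car12, Adm and Slc2a3 lie farthest to the right in both KO libraries, Ndrg1, Car9 and Ldhb farthest to the left, and all 8 HIF regulators stay within 1 unit of 0.

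Among the 17 glycolytic enzymes, 9 were higher, 4 lower and 4 not called, beside 32.6% called each way over all genes tested. Their median log2 fold change was 0.37. At the entry of the route, Hk2, the inducible hexokinase that binds mitochondria, was at normalized read counts of 1728, 1752 and 1872 in the WT libraries and 2642 and 2859 in the KO libraries (log2 fold change 0.62, SE 0.0519, limma adjusted p = 8.05e-10). The broadly expressed Hk1 was at 3507, 3554 and 3614 in the WT libraries and 3158 and 3196 in the KO libraries and fell slightly (log2 fold change -0.16, SE 0.0415, limma adjusted p = 0.00167). Per length, Hk2 therefore made up more of the summed hexokinase RPKM (reads scaled by gene length and library size): 28.7%, 28.7% and 29.8% in WT against 40.6% and 42.3% in KO libraries. The exact two-sided permutation p of this share was 0.1, the smallest that the 10 groupings of 3 against 2 libraries allow, so no share given here can pass 0.05. Gpi1, which isomerizes glucose phosphate, was at 11570, 11418 and 11442 in the WT libraries and 12857 and 13397 in the KO libraries (log2 fold change 0.19, SE 0.0365, limma adjusted p = 8.55e-05).

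Phosphofructokinase, the committed step, shifted between its 3 genes. The platelet form Pfkp rose from values of 244, 246 and 258 normalized read counts in WT to 476 and 506 in KO libraries (log2 fold change 0.97, SE 0.0987, limma adjusted p = 1.88e-08). The liver form Pfkl, at 8703, 8465 and 8357 in the WT libraries and 5505 and 6076 in the KO libraries, fell (log2 fold change -0.56, SE 0.0426, limma adjusted p = 2.03e-10). Muscle form Pfkm was not called, with overlapping values of 1454, 1336 and 1405 against 1381 and 1399 (log2 fold change -0.0081, SE 0.0556, limma adjusted p = 0.908). Pfkl remained the most abundant of the 3, with 81.5% ± 0.486 (SD, n = 3) of their summed RPKM in WT and 72.9% ± 1.05 (SD, n = 2) in KO libraries. Pfkp went from 2.23% ± 0.104 to 5.77% ± 0.0678 and Pfkm from 16.3% ± 0.466 to 21.4% ± 0.986, each with an exact permutation p of 0.1.

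In the middle of the route, Aldoa, Tpi1, Gapdh and Pgam1 rose and Pgk1 was not called. Aldoa, the main aldolase gene of these cells, was at normalized read counts of 17299, 17519 and 16628 in the WT libraries and 25856 and 26658 in the KO libraries (log2 fold change 0.61, SE 0.0375, limma adjusted p = 4.6e-12). Aldoc, its brain paralog, had overlapping low values of 17.7, 24.7 and 18.5 against 30.8 and 22.2 (log2 fold change 0.37, SE 0.336, limma adjusted p = 0.348), and Aldoa held between 99.85% and 99.91% of the aldolase RPKM in every library. Tpi1, triose phosphate isomerase, and Gapdh, which makes the first reduced cofactor of the route, were 1.40-fold and 1.45-fold higher (SE of the log2 fold change 0.0489 and 0.0403, limma adjusted p = 1.82e-08 and 1.44e-10). Gapdh is often used as a reference gene, and here it stood at 40482, 40522 and 37785 in the WT libraries and 57314 and 57631 in the KO libraries. Pgk1, phosphoglycerate kinase, was not called (log2 fold change -0.056, SE 0.036, limma adjusted p = 0.182), although its groups did not overlap. Pgam1, phosphoglycerate mutase, was at 6192, 6084 and 6232 in the WT libraries and 9114 and 10033 in the KO libraries (log2 fold change 0.63, SE 0.0418, limma adjusted p = 1.76e-11).

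Enolase needs care with the rows. Eno3, the muscle enolase, was at normalized read counts of 262, 264 and 242 in the WT libraries and 514 and 515 in the KO libraries, with no overlap (log2 fold change 1.00, SE 0.0976, limma adjusted p = 9.65e-09). Neuronal Eno2, at 153, 162 and 133 against 194 and 191, was called higher (log2 fold change 0.37, SE 0.138, limma adjusted p = 0.0243), but not without WT replicate 3 (limma adjusted p = 0.109), KO replicate 1 (0.0966) or KO replicate 2 (0.0793). The row of Eno1, the ubiquitous enolase, held very few reads: 11.5, 16.8 and 10.2 in the WT libraries and 19.8 and 12.2 in the KO libraries (log2 fold change 0.29, SE 0.421, limma adjusted p = 0.556). A near-identical copy of Eno1 has a row under the symbol Gm5506, which held 7327, 7174 and 6867 in the WT libraries and 7192 and 7344 in the KO libraries and was not called (log2 fold change 0.03, SE 0.0392, limma adjusted p = 0.522). Enolase shares taken from the Eno1 row alone are therefore not given. With the Gm5506 row added to Eno1, a choice made after seeing the data, Eno3 held 7.24%, 7.41% and 7.16% of enolase RPKM in WT and 13.4% and 13.2% in KO libraries. Of 3 genes near-identical to Eno1, only Gm5506 has a row, so Eno1 reads may be missing from this sum. The Eno3 share is uncertain to that extent.

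The last steps moved the other way. The Pkm2 row was at 127228, 124260 and 128176 in the WT libraries and 97233 and 101529 in the KO libraries (log2 fold change -0.35, SE 0.0422, limma adjusted p = 2.69e-07). Ldha, the lactate dehydrogenase subunit induced by HIF, was at 56129, 54231 and 55441 in the WT libraries and 50255 and 49263 in the KO libraries and fell (log2 fold change -0.15, SE 0.0382, limma adjusted p = 0.00158). Ldhb, the heart subunit, was at 474, 522 and 498 in the WT libraries and 299.5 and 324 in the KO libraries (log2 fold change -0.67, SE 0.0911, limma adjusted p = 1.29e-06), so its share of lactate dehydrogenase RPKM went from 1.33% ± 0.0869 (SD, n = 3) to 0.929% ± 0.0632 (SD, n = 2; exact permutation p = 0.1). By RPKM, Pkm2 was the highest gene of the route in the WT libraries, at 1326, 1292 and 1336 against 890.3, 889 and 831 for Gapdh. In the KO libraries Gapdh was above it, at 1262 and 1253 against 1015 and 1046.

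**Figure D2:**
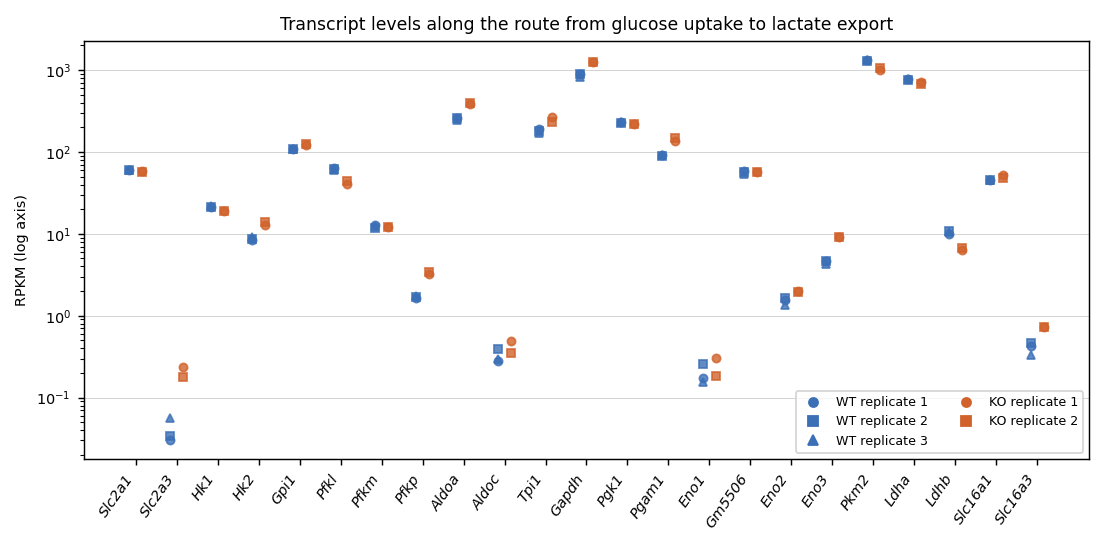
RPKM per library (vertical log axis) for genes ordered from glucose uptake to lactate export, with WT in blue, KO in orange and the replicate by shape; Pkm2 and Gm5506 are the rows described beside the members. Gapdh, Aldoa, Tpi1 and Pgam1 are higher in both KO libraries, while Pfkl, Pkm2, Ldha and Ldhb are lower, and the Eno1 row lies far under Gm5506.

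Summed over the 17 enzymes, RPKM was 2683, 2634 and 2581 in WT and 3204 and 3163 in KO libraries, a rise of 20.9% with an exact two-sided permutation p of 0.1, the smallest possible. The size of the rise depended on a few abundant rows. It was 9.30% without Gapdh, and, in choices made after seeing the data, 34.0% without Ldha and 6.60% with the Pkm2 and Gm5506 rows added. The shift of neighbouring genes, described further on, was not removed from these sums. Several of these genes share sequence with other genes that the counting may not separate: GENCODE M21 holds 77 genes with at least 95% identity to Gapdh over 300 bases or more, 5 for Bnip3, 4 for Pgk1, 3 each for Eno1 and Ldha, and 1 each for Gpi1, Pfkp, Tpi1, Pgam1, Pkm, Ldhb, Pfkfb2, Ndrg1 and Higd1a. Genes that overlap a member on the chromosome were not taken out of these counts. The match for Pfkp is Pitrm1 over 748 bases, which equals the overlap of their exons. For Higd1a the longest match was 683 bases, which equals its exon overlap with Gm47112. The values of the members listed are uncertain to that extent. Exons of Pfkm, Pfkp, Aldoa, Tpi1, Gapdh, Pfkfb1, Pfkfb2, Egln2 and Ankrd37 also overlap those of another gene with a row, and how the counting treated strand is not given in the sources used here.

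Of the 3 transporters tested beside Slc2a3, 2 were higher and 1 was not called, where 32.6% of all genes tested were called higher. The main glucose importer Slc2a1 (GLUT1) was not called, at normalized read counts of 5732, 5748 and 5657 in the WT libraries and 5539 and 5477 in the KO libraries (log2 fold change -0.052, SE 0.0379, limma adjusted p = 0.231), although its groups did not overlap. Slc2a3 (GLUT3), the high-affinity importer best known from neurons, did not reach 10 in a WT library: 4.42, 4.95 and 8.33 in the WT libraries and 34.1 and 26.7 in the KO libraries (chr6:122727809-122802363). Both KO values lay above the WT values, but the size of the difference depended on how low values were handled: the log2 fold change was 2.22 with a pseudocount of 1, 1.71 with 5, 1.13 on the RPKM scale and 1.35 in the authors' deposited table. In the KO libraries it made up 0.399% and 0.316% of the RPKM of both importers. The lactate transporter Slc16a1 (MCT1) rose slightly (log2 fold change 0.15, SE 0.0382, limma adjusted p = 0.00136), with 7344, 7358 and 7425 against 8437 and 7980. Slc16a3 (MCT4), the HIF-induced lactate exporter of glycolytic cells, was at 40.7, 44.5 and 31.4 in the WT libraries and 69.4 and 70.1 in the KO libraries (log2 fold change 0.84, SE 0.239, limma adjusted p = 0.00412). Slc16a3 was a minor form in every library, with 0.898% ± 0.158 (SD, n = 3) and 1.44% ± 0.0656 (SD, n = 2) of their summed RPKM.

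The PFKFB enzymes make and remove a fructose bisphosphate that activates phosphofructokinase, and all 4 of their genes were called, 3 higher and 1 lower. Of all genes tested, 65.3% were called in either direction. Pfkfb3, the form with the strongest bias to synthesis and a HIF target, was at normalized read counts of 235, 202 and 217 in the WT libraries and 523 and 518 in the KO libraries (log2 fold change 1.25, SE 0.104, limma adjusted p = 8.2e-10). Pfkfb4, also induced by hypoxia, was at 270.5, 268 and 271 in the WT libraries and 496 and 474 in the KO libraries (log2 fold change 0.84, SE 0.0957, limma adjusted p = 1.08e-07). Pfkfb1, the liver and muscle form, was at 148, 160.3 and 158 in the WT libraries and 282 and 255 in the KO libraries (log2 fold change 0.78, SE 0.126, limma adjusted p = 1.32e-05). None of these 3 had overlapping groups, and neither did 75.4% of all genes tested. Pfkfb2, the heart form, fell from 1249, 1164 and 1220 in WT to 799.5 and 873 in KO libraries (log2 fold change -0.53, SE 0.0632, limma adjusted p = 1.93e-07). In WT libraries Pfkfb2 was the most abundant form, with 38.1%, 36.4% and 37.2% of the family's RPKM, and in KO libraries it was the least abundant, with 16.8% and 19.0%. Pfkfb3 went from 12.2% ± 0.791 to 20.3% ± 0.327, Pfkfb4 from 23.8% ± 0.211 to 29.7% ± 0.270 and Pfkfb1 from 26.7% ± 1.44 to 32.1% ± 1.58 (SD, n = 3 and n = 2; exact permutation p = 0.1 each).

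**Figure D3:**
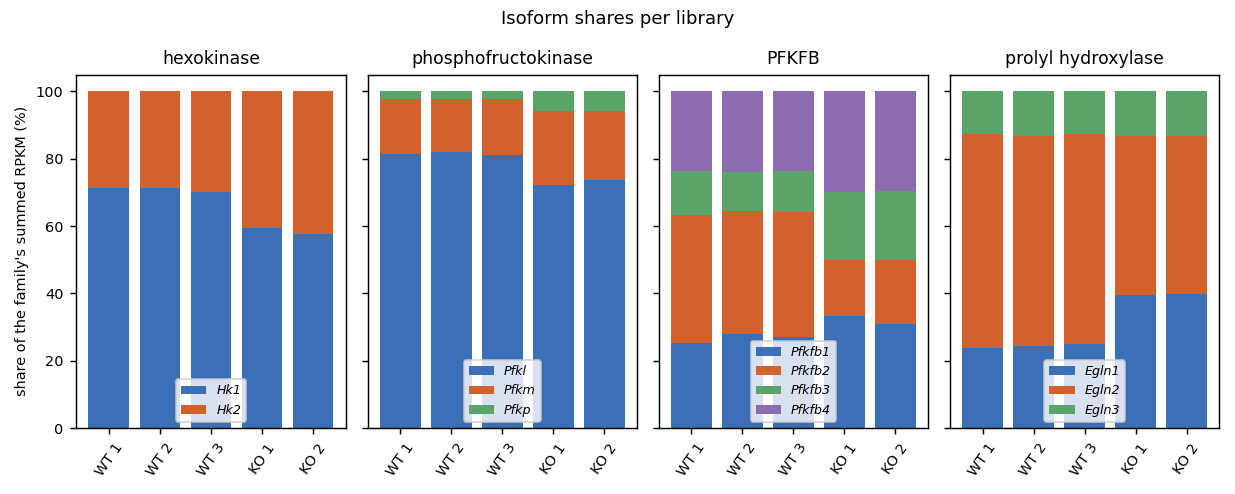
Stacked bars give, for each library, the share of each gene in the summed RPKM of its family (vertical axis, percent), for the hexokinases, phosphofructokinases, PFKFB enzymes and HIF prolyl hydroxylases. Hk2, Pfkp, Pfkfb3 and Egln1 take larger shares, and Pfkl, Pfkfb2 and Egln2 smaller shares, in both KO libraries.

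The 8 HIF regulators comprised 4 called higher, 2 lower and 2 not called, beside 32.6% called each way over all genes tested. Their median log2 fold change was 0.22. Hif1a, the oxygen-labile subunit, was at normalized read counts of 7763, 8297 and 7950 in the WT libraries and 7334 and 7254 in the KO libraries and fell (log2 fold change -0.13, SE 0.0389, limma adjusted p = 0.00502), while DESeq2 on the recovered reads of 4 libraries did not call it (adjusted p = 0.0541). Epas1 (HIF2A), the second alpha subunit, was hardly expressed, with overlapping values of 9.72, 12.9 and 7.4 against 14.3 and 8.9 (log2 fold change 0.19, SE 0.468, limma adjusted p = 0.732). Arnt, the constant partner, also overlapped at 3495, 3660 and 3518 against 3276 and 3635 (log2 fold change -0.044, SE 0.0471, limma adjusted p = 0.429), though it was called lower without KO replicate 2 (limma, log2 fold change -0.12, adjusted p = 0.0437). Hif1a held between 99.83% and 99.92% of the RPKM of both alpha genes in all 5 libraries.

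Among the genes that restrain HIF, Egln1, Hif1an, Egln3 and Vhl were called higher and Egln2 lower; with the shift of neighbouring genes removed, as described further on, Egln1 was called lower and the Vhl and Egln2 calls were lost. Egln1, the main oxygen sensor at chr8:124908587-124949254, was at 1995, 1985 and 2135 in the WT libraries and 3758 and 3808 in the KO libraries (log2 fold change 0.89, SE 0.0467, limma adjusted p = 3.39e-13). Hif1an (FIH), the asparaginyl hydroxylase at chr19:44562854-44576274, was at 4523, 4693 and 4478 in the WT libraries and 7822 and 8039 in the KO libraries (log2 fold change 0.80, SE 0.0393, limma adjusted p = 1.22e-13). No WT value of either gene reached a KO value. Egln3, itself a HIF target, was at 802, 824 and 822 against 957 and 966 (log2 fold change 0.24, SE 0.0635, limma adjusted p = 0.00263). Vhl, the substrate receptor of the ubiquitin ligase, was at 1258, 1143 and 1217 against 1522 and 1423 (log2 fold change 0.29, SE 0.0592, limma adjusted p = 0.000218). Egln2, the hydroxylase that hypoxia does not induce, fell from 3169, 3010 and 3198 in WT to 2685 and 2676 in KO libraries (log2 fold change -0.22, SE 0.0444, limma adjusted p = 0.000172). By RPKM, Egln2 led the hydroxylases with 62.7% ± 0.6995 (SD, n = 3) in WT and 47.0% ± 0.279 (SD, n = 2) in KO libraries, while Egln1 went from 24.4% ± 0.522 to 39.7% ± 0.234. The Egln3 share overlapped between groups, at 12.9% ± 0.431 and 13.3% ± 0.0453 (exact permutation p = 0.4).

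The 9 HIF targets outside glycolysis divided into 4 higher, 2 lower and 3 not called, beside 32.6% called each way over all genes tested. Their median log2 fold change was 0.14. Car12, a surface carbonic anhydrase that buffers pH, was at 43.3, 64.3 and 31.4 in the WT libraries and 432 and 390.3 in the KO libraries (log2 fold change 3.18, SE 0.215, limma adjusted p = 2.69e-11), 9.05-fold higher. Adm, the vasodilator peptide adrenomedullin, was at 21.2, 24.7 and 20.4 in the WT libraries and 120 and 151 in the KO libraries (log2 fold change 2.56, SE 0.243, limma adjusted p = 6.52e-09), 5.90-fold higher. Both were expressed at a low level in the WT libraries and no WT value reached a KO value.

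Opposite to these, Ndrg1, a stress-responsive gene induced by hypoxia, went from 3911, 3937 and 4071 in WT to 1939 and 1953 normalized read counts in KO libraries (log2 fold change -1.03, SE 0.0431, limma adjusted p = 6.94e-15). Car9, the carbonic anhydrase most often used as a mark of HIF activity, was at 33.6, 27.7 and 27.8 against 17.6 and 16.7 and so near the filter (log2 fold change -0.75, SE 0.317, limma adjusted p = 0.0425). Its call was lost without each of the 5 libraries in turn (limma adjusted p between 0.0642 and 0.118), with edgeR (0.0699) and DESeq2 (0.216) on recovered reads, and in the authors' deposited table (0.174). Vegfa, the angiogenic factor, was 1.18-fold higher (SE 0.0444 on the log2 scale, limma adjusted p = 8.12e-05) and Kdm3a, a histone demethylase, 1.11-fold higher (SE 0.043, adjusted p = 0.00563). The mitophagy receptor Bnip3, the ankyrin repeat gene Ankrd37 and the mitochondrial protein gene Higd1a were not called, at log2 fold changes of 0.14, 0.12 and -0.036 with SEs of 0.0987, 0.246 and 0.099.

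Set side by side, 9 of 17 glycolytic enzymes were higher and 4 lower, while 8 of the 17 HIF regulators and targets were higher and 4 lower. Over all genes tested, 32.6% were called in each direction. The medians were 0.37 and 0.14 on the log2 scale. The enzyme median fell on Aldoc, a low gene that was not called, and it was also 0.37 among enzymes with a mean of 50 or more. It took in the Eno1 row with its few reads and left out the Pkm2 row, which was lower (log2 fold change -0.35). The range was wider among regulators and targets, from -1.03 for Ndrg1 to 3.18 for Car12, than among enzymes, from -0.67 for Ldhb to 1.00 for Eno3. Whether the roles differ was not tested.

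Members were next set against the genes around them, since genes near each other differed in the same direction in several regions. The local median is the median log2 fold change of the other tested genes within 5 Mb. At Egln1 it was 1.04 over 83 genes, at Adm 0.71 over 46, at Ankrd37 0.61 over 29, at Pgam1 0.53 over 99 and at Hif1an 0.51 over 101. Egln1 thus rose less than the median of its neighbours, Pgam1 by 0.10 more and Hif1an by 0.28 more. Among other enzymes, the local median was 0.36 at Hk2, 0.32 at Aldoa, 0.26 at Tpi1 and 0.26 at Gapdh, but -0.30 at Pfkl and -0.21 at Gpi1. The neighbours of Ldhb and Ndrg1 gave 0.26 and -0.19. The cause of these regional differences was not tested.

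**Figure D4:**
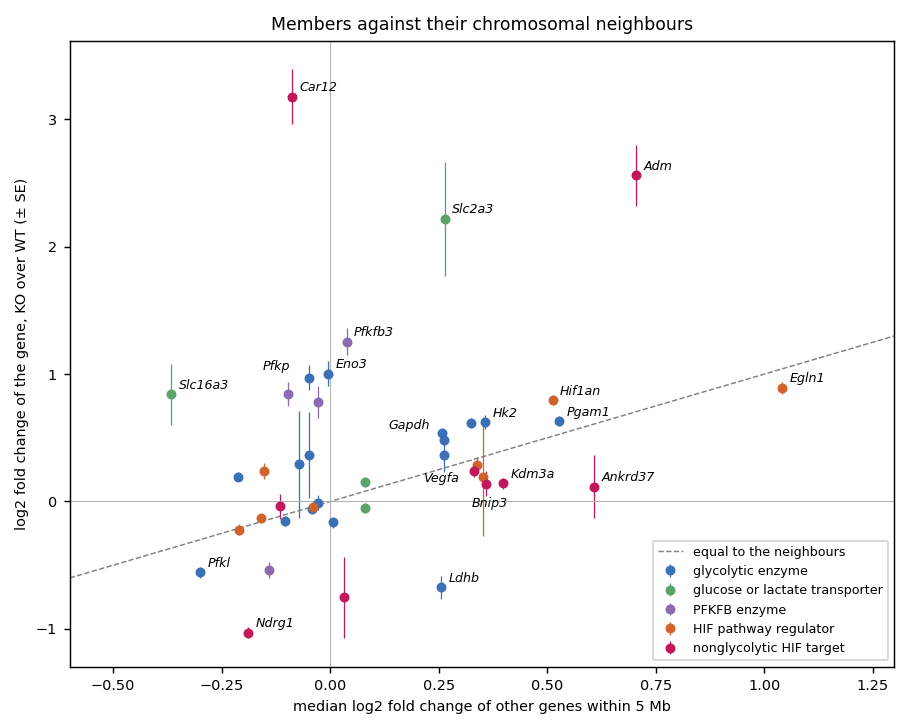
Each point is a member, with its log2 fold change, KO over WT (vertical axis, bars show the SE from limma), against the median of other tested genes within 5 Mb (horizontal axis), coloured by role; the dashed line marks equal values. Egln1 and Ankrd37 lie under the line at its right end, while Car12, Adm, Slc2a3, Pfkfb3, Slc16a3, Pfkp and Eno3 lie more than 1 unit above it.

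With the local median subtracted, 16 of the 41 members were called higher, 9 lower and 16 not, where 30.0% of the genes with a local median were called higher and 29.9% lower. The error of the local median is not part of these p-values. Glycolytic enzymes kept a median of 0.22, with 8 higher and 3 lower, while HIF regulators were at -0.0074 and nonglycolytic targets at -0.22. Among enzymes, Pfkp, Eno3, Gpi1 and Aldoa stayed higher (log2 differences of 1.02, 1.01, 0.41 and 0.29), Hk2, Gapdh and Tpi1 were at 0.27, 0.28 and 0.22, Ldhb was at -0.93, and the calls of Ldha and Eno2 were lost (limma adjusted p = 0.285 and 0.543). Slc2a1 became lower (-0.13, limma adjusted p = 0.00468) and Slc16a1 lost its call (0.102).

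Of the regulators and targets called before the subtraction, 5 changed sign. Egln1 turned to -0.15 (limma adjusted p = 0.0146) and Kdm3a to -0.25 (4.25e-05), both called lower. Vhl, Vegfa and Hif1a changed sign without a call, at -0.05, -0.094 and 0.026 (limma adjusted p = 0.497, 0.0796 and 0.582), and the Egln2 call was lost (0.833). Epas1, Bnip3, Ankrd37 and Higd1a, which were called in neither case, also changed sign. Hif1an and Egln3 stayed higher, at 0.28 and 0.39. Car12, Adm and Ndrg1 kept their directions and calls, at 3.27, 1.85 and -0.84.

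HIF binds DNA at the core letters ACGTG or GCGTG, and the promoters of members were searched for both, on both strands, from 250 bases before to 50 after each RefSeq start (GRCm38.p6). Matches can overlap, as ACGTG does on both strands within CACGTG, which was found in 8 member genes. Of 40 members with an entry, Pkm included, 34 (85.0%) held either core, against 67.9% of tested genes with an entry and 46.7% of all genes with an entry. ACGTG was in 24 (60.0%), against 29.3% of tested genes with an entry. A gene counted if any of its windows matched, and some genes have several windows. Per window, either core was in 73.8% for members against 61.8% for tested genes, and ACGTG in 45.9% against 25.2%. By call, a core was in 16 of 22 members called higher, 8 of 8 called lower and 9 of 9 not called. Such a match is a description of letters in this window and not a binding site.

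The following stretches upstream of the start are shown because these promoters hold the core letters while their genes rose, fell or were not called; capitals mark ACGTG or GCGTG on either strand. They lie at chr6:82774485-82774544 (minus strand) for Hk2, chr19:41911691-41911790 (plus strand) for Pgam1, chr11:120949009-120949066 (plus strand) for Slc16a3, chr2:11502131-11502220 (minus strand) for Pfkfb3, chr8:124949305-124949384 (minus strand) for Egln1, chrX:106186940-106186989 (plus strand) for Pgk1, chr7:46845654-46845778 (plus strand) for Ldha and chr4:43506968-43507025 (plus strand) for Car9, each read 5′ to 3′ on its gene's strand, and 1 stretch is shown where RefSeq gives several starts.
Hk2: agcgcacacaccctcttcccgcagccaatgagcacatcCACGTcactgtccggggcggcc
Pgam1: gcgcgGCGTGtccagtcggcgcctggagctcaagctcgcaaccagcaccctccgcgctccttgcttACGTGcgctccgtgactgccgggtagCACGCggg
Slc16a3: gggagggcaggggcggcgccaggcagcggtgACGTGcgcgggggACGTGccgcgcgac
Pfkfb3: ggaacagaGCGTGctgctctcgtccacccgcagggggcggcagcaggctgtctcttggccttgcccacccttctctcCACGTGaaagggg
Egln1: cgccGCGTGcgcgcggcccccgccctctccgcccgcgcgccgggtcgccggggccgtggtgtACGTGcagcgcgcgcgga
Pgk1: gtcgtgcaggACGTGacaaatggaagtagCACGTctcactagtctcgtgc
Ldha: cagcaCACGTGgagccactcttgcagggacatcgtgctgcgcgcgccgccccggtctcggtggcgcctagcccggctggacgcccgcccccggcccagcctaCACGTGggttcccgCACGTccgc
Car9: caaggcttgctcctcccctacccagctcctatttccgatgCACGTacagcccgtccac
The first 5 genes were called higher, Pgk1 was not called, and Ldha and Car9 were called lower. Ldha, with 5 matches in the stretch, differed by -0.15 on the log2 scale. Car12, Hif1an, Vhl, Tpi1, Gpi1 and Eno2, which were called higher, held neither core in the windows searched.

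Of 30 other listed genes of carbohydrate metabolism, 20 were tested, 2 were higher, 11 lower and 7 not called, where 32.6% of all genes tested were called in each direction, with a median log2 fold change of -0.23. The pyruvate dehydrogenase kinases, which close the entry of pyruvate into mitochondria, fell in 3 of 4 cases. Pdk4 went from 706, 718 and 798 in WT to 14.3 and 24.5 normalized read counts in KO libraries (log2 fold change -5.23, SE 0.168, limma adjusted p = 7.32e-17). Pdk1, a known HIF target, went from 1826, 1875 and 1764 in WT to 834 and 746 in KO libraries (log2 fold change -1.21, SE 0.0599, limma adjusted p = 1.38e-13), Pdk2 was at -1.01 (limma adjusted p = 4.55e-06), and Pdk3 was not called. G6pc3, a glucose phosphatase, and Pgam2, the muscle mutase, were also lower, at -1.42 (SE 0.0658) and -1.73 (SE 0.166; limma adjusted p = 4e-14 and 8.36e-09).

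Of 50 other hypoxia genes, 44 were tested, 18 were higher, 16 lower and 10 not called, beside the same 32.6% each way over all genes tested, with a median log2 fold change of 0.019. Edn1, the vasoconstrictor endothelin, went from 78.7, 101 and 104 in WT to 908 and 833 in KO libraries (log2 fold change 3.20, SE 0.131, limma adjusted p = 4.87e-15). Flt1, a receptor for VEGF, went from 1145, 1178 and 1200 in WT to 3163 and 3367 in KO libraries (log2 fold change 1.47, SE 0.0513, limma adjusted p = 2.72e-16). Its ligand gene Pgf was at 6.19, 13.8 and 9.25 in the WT libraries and 22 and 37.8 in the KO libraries (log2 fold change 1.54). Of the WT libraries only replicate 2 reached 10, so Pgf passed the filter through the KO libraries, where it is high. Pgf is therefore described without a test, though the 18 genes called higher include it. Ak4, a mitochondrial adenylate kinase, and Arnt2, a paralog of Arnt, were 3.79-fold and 2.03-fold higher (SE 0.153 and 0.0733 on the log2 scale, limma adjusted p = 3.99e-10 and 6.99e-11). In the other direction, the lipase inhibitor Angptl4 and the water channel Aqp1 were 3.52-fold and 3.32-fold lower (SE 0.104 and 0.0416, limma adjusted p = 1.57e-12 and 4.95e-19).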

How the data were processed

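Per the labels' protocols, RNA was selected on poly-T beads, made into libraries with a Nextera XT kit and read on an Illumina NextSeq. STAR, DESeq2 and mm10 are named in the submitters' processing notes, without versions or roles. The annotation and the treatment of strand were not given in the sources used here. For each library the deposited table holds a signal, which its values show to be the authors' read count over a size factor (100% of values were whole reads within 0.1), and RPKM. The authors' log2 fold changes and p-values stand beside them, per the file headers. The test was limma 3.58.1 (R 4.3.3, trended prior, two-sided) on log2(normalized read count + 1), with genotype as the factor. It covered the 13062 genes that reached 10 in 2 or more libraries, and a gene was called where its p, adjusted over all of them by Benjamini-Hochberg, was under 0.05. Replicates differed by more than sampling noise (mean chi-square per degree of freedom 3.40 to 7.48). Counts were also simulated from the mean levels of these genes, with a single dispersion of 0.001 and 200 changed genes (12947 tested). The test then recovered 58% of 1.2-fold, 86% of 1.5-fold, 94% of 2-fold and 100% of 4-fold changes, with 7 false among 174 calls. That dispersion was set and not estimated from these libraries, where 65.3% of genes tested were called. These rates therefore do not describe how the test performs on the data. edgeR 4.0.16 and DESeq2 1.42.0 were run on recovered reads of 4 libraries, without WT replicate 2, whose step of 0.989 per read is too near 1. Local medians needed at least 10 tested genes within 5 Mb by RefSeq position (GRCm38.p6) and were had for 12868 genes. Other alternatives were rescaling, filters, pseudocounts, left-out libraries, the RPKM scale and a threshold of 0.01. The members and lists were chosen with earlier results of these data known. Any member may be named, with every library's value for those called with a difference of at least 1.5-fold, the regulators and the isoform families. Genes of the other lists are named if called with a difference of at least 2-fold. Pdgfra, Col1a1, Col1a2, Fn1, Thy1, Acta1, Tubb3, Map2, Epcam, Kdr, Cdh5 and Pdk3 were named after their values were seen.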

Additional observations from a re-analysis of the deposited data

How the results depend on the processing

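For the 41 members other than Slc2a3, TMM and median-ratio rescaling, both pseudocounts and the RPKM scale left every direction and side of the threshold unchanged. With a mean of 50 or more, 36 members were tested and all kept their direction and side of the threshold. The Car9 call decided the lower targets, which came to 1 in place of 2 without a filter, with a mean of 50 or more (where Car9 was not tested), with the replicate block, at a threshold of 0.01, with edgeR, with DESeq2, in the authors' deposited comparison and without any of the 5 libraries in turn. DESeq2 also left 1 regulator lower. Removing the local shift, the one alternative run that turned the sign of members called before it, gave medians of 0.077 over all members, 0.22 over enzymes, -0.0074 over regulators and -0.22 over targets, with 1 transporter lower, 2 regulators higher and 1 lower, and 2 targets higher and 3 lower. Over all genes with a local median, 30.0% were called higher and 29.9% lower in that setting. Hif1a was then at 0.026, Egln1 at -0.15, Vhl at -0.050, Vegfa at -0.094 and Kdm3a at -0.25. Members that were not called also changed sign: 5 with the local shift removed, 5 without KO replicate 1 (Ankrd37, Arnt, Eno1, Epas1 and Pfkm), and Higd1a or Pfkm with edgeR, DESeq2 or without KO replicate 2, WT replicate 1 or WT replicate 2. The regulators' median was 0.15 on the RPKM scale. Leaving out single libraries moved the medians from 0.18 (without KO replicate 1) to 0.33 (without KO replicate 2) over all 42 members, Slc2a3 included. They moved from 0.22 to 0.53 over enzymes, from 0.13 to 0.28 over regulators and from 0.12 to 0.16 over targets. The enzymes' summed RPKM rose by 9.30% without Gapdh, 16.5% as read counts and, in settings chosen after seeing the data, 34.0% without Ldha and 6.60% with Pkm2 and Gm5506. Same-numbered libraries of the groups did not deviate together (correlations of -0.015 and 0.023 over 11186 genes) and no label ties them; with the replicate block the regulators' median was 0.13 and the calls of Eno2 and Car9 were lost. For Eno1, Epas1, Aldoc, Ankrd37, Slc2a3 and Car9, low counts limit what could be detected.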
